A study of Mus musculus with 9 samples.

Results

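The cytoplasmic ribosomal protein genes described here are the rows of the expression table without immunoglobulin (Ig) genes whose symbol names a large-subunit (Rpl) or small-subunit (Rps) protein and which were selected on a mean of at least 10 TPM over 9 libraries. TPM, transcripts per 1000000 transcripts, is an abundance in which reads are divided by transcript length and set to the same total in each library. Of 29995 rows, 87 matched the symbol pattern and 79 of these passed the threshold, 48 of the large and 31 of the small subunit. Because the mean TPM chose the members, their high level is a description and not a finding. All 79 also had a mean of at least 10 TPM in each group taken alone. Just inside the threshold lay Rpl7l1 with a mean TPM of 76.5, and just outside it lay Rps4l with 9.67. The other rows outside it were Rpl3l, Rpl10l, Rpl39l, Rps3a2, Rps3a3, Rps12l2 and Rps12, which is listed at 0 in every library.

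RNA-seq libraries were made from splenic B-lineage cells of B6.Blimp1GFP/+ mice, in which an allele of Prdm1 (encoding Blimp1) reports with green fluorescent protein (GFP) and so is present in all 3 groups. The mice were 12 weeks old and had received 50 μg of NP-LPS, nitrophenyl hapten on bacterial lipopolysaccharide, into the peritoneum 4 days earlier. Each group had 3 libraries. The naive gate took cells with high IgD and B220 that did not bind NP. Activated B cells bound NP, expressed B220 and lacked IgD, GFP and CD138. Plasma cells (PCs) bound NP, lacked IgD, carried GFP and CD138 and could be B220 positive or negative. Cells stained for CD4, CD8a, Ter-119 or F4-80 were gated out in all groups. Naive cells thus came from immunized mice and are not an unimmunized control. Nothing in the labels says which libraries came from the same mouse. The paper states that the NP-binding cells of both populations came from 3 individuals. The main fit did not pair libraries, so adjusted p-values measure the spread among these libraries.

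Without Ig genes, the libraries held 28490278 to 31719387 estimated reads in naive B cells, 34918379 to 38602257 in activated B cells and 20189947 to 22137412 in PCs. The summed TPM of 5 PC markers was 142 to 167 in naive, 175 to 194 in activated B cells and 4811 to 5939 in PCs, and Pax5, which maintains B cell identity, was at 1.18, 0.219 and 0.665 TPM in the PC libraries. PC replicate 3 also held liver transcripts, with a summed TPM of 4897 over 8 liver genes against at most 26.2 in any other library, and without it no member's call in PCs over 2-fold was lost. The macrophage list summed to 8.42 to 9.65 TPM in naive, 47.9 to 69.6 in activated B cells and 32.3 to 76.5 in PCs, and its part in the results was not tested. Cd68 was at 3.88 to 4.05 TPM in naive libraries, 45.0 to 67.6 in activated B cells and 28.8 to 35.6 in PCs, and C1qb reached 15.9 TPM in PC replicate 3. C1qa, C1qb and Marco were at or near 0 in the activated B cells. Summed neutrophil markers were 50.4 TPM in activated replicate 2 and 34.7 in PC replicate 3 and at most 7.68 in the other libraries, led by S100a8 with 24.7 TPM in activated replicate 2, and their part in the results was not tested either. Erythroid markers summed to 6.24 to 37.3 TPM, highest in PC replicate 3, and T cell and megakaryocyte markers to at most 8.92.

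Ribosomal proteins clothe the ribosomal RNA of the small subunit, which reads the mRNA, and of the large subunit, which forms peptide bonds. Their genes lie scattered over the genome, yet a ribosome carries a copy of nearly every protein, so their transcripts are usually abundant and kept close to proportion. Their mRNAs begin with a run of pyrimidines that allows mTORC1, through the protein Larp1, to set their translation, so mRNA level and protein output can part. Plasma cells are known for very high Ig synthesis, which is why the abundance of these transcripts is of interest here. A few ribosomal proteins have a paralog encoded by a separate gene, and some paralogs are used in particular tissues.

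The 79 genes lay on 19 chromosomes, 4 of them on X. Start regions are shown for the 6 members called over 2-fold in a comparison, for Rpl36al and its partner Rpl36a, and for Rpl38 as an example of a long pyrimidine run, because the pyrimidine run is the feature by which these mRNAs are controlled as a class. Sequences are from RefSeq on GRCm38, run 5′ to 3′ on the strand of the gene, start 40 bases before the most upstream RefSeq start and end 20 bases after it. Capitals mark the longest run of C and T between 10 bases before and 20 bases after the start.
Rps27, chr3:90213629-90213688, minus strand: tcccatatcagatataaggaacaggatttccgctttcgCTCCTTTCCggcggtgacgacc
Rps27l, chr9:66946046-66946105, plus strand: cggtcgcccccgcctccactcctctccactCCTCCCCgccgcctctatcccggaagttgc
Rpl36a, chrX:134585614-134585673, plus strand: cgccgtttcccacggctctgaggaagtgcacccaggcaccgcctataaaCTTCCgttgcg
Rpl36al, chr12:69184048-69184107, minus strand: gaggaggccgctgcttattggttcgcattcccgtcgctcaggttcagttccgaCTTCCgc
Rpl10, chrX:74270776-74270835, plus strand: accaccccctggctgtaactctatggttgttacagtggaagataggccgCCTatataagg
Rpl41, chr10:128549149-128549208, minus strand: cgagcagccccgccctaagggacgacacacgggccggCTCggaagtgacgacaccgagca
Rpl38, chr11:114668540-114668599, plus strand: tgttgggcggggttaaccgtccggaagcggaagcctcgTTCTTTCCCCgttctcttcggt
Rpl12, chr2:32961672-32961731, plus strand: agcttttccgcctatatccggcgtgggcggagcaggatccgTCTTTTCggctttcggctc
Rpl7l1, chr17:46782637-46782696, minus strand: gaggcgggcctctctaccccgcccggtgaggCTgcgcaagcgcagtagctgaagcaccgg
The run was 9 bases long in Rps27 and 10 in Rpl38, while Rpl10 and Rpl41 had only 3 bases and Rpl7l1 had 2 at the RefSeq start used. In Rps27l the run begins at the edge of the window and goes on upstream of it, so its length is not compared. RefSeq start regions matched 58 of the 79 members. A run of at least 6 pyrimidines in this window was found in 62.1% of them and in 32.1% of 27025 genes, and a run of at least 8 in 39.7% against 13.0%. Over the 250 bases before to 50 after the start, on both strands, CCGGAAG, the core letters bound by ETS factors, was found in 41.4% of the members and 9.93% of all genes. The letters CACGTG were found in 10.3% against 8.09%, TATAAA in 12.1% against 15.7%, and TGACGTGG in 0 of 58 members against 0.714% of genes. These are matches of letters only.

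Ribosomal protein genes were among the most abundant transcripts of all 3 cell types. Of the 50 genes with the highest mean TPM 16 were members, and 76 members were among the 500 highest. Median TPM over the members was 1387 in naive B cells, 1073 in activated B cells and 1214 in PCs. The genes were far from equal. Highest by mean were Rps19 (6299.6 TPM), Rps29 (4733) and Rpl41 (4636), and lowest were Rpl7l1, Rpl12 (181) and Rpl5 (209.5). In naive B cells the median was 1132 TPM over the 48 large-subunit genes and 1488 TPM over the 31 small-subunit genes. Of the 79 members, 63 had a highest library under 2 times their lowest, and 3 had at least 3 times, Rps27l (8.72), Rpl10 (4.87) and Rps27 (3.22). These counts were not made over all genes, so they are not set against a background.

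The first question was how much of the mRNA of each cell type belongs to ribosomal protein genes. In the table without Ig genes their share of TPM was 13.98%, 15.2% and 13.7% in the naive libraries, 10.5%, 14.2% and 12.6% in activated B cells and 12.9%, 12.7% and 12.9% in PCs. All PC libraries lay below all naive libraries, and the activated B cell libraries overlapped with both groups. The mean was 14.3% ± 0.761 (SD, n = 3) for the naive group, 12.5% ± 1.85 in activated B cells and 12.8% ± 0.139 in PCs. In the table that keeps Ig genes, the share of the summed rows was 13.5% ± 0.709, 11.7% ± 1.75 and 5.19% ± 0.374. The 3 PC libraries then had 5.32%, 4.77% and 5.49%, all below the lowest other library at 9.81%. The rows of that table summed to 671550 to 699885 TPM in PCs and to at least 902902 in the other libraries, so the share depends on the denominator. Against the nominal 1000000 TPM the PC libraries had 3.63%, 3.34% and 3.69%, and the naive mean was 12.6% ± 0.67. The large subunit took 7.04%, 6.21% and 6.81% and the small subunit 7.25%, 6.24% and 6.004% of TPM in naive, activated and plasma cells. PC and naive libraries overlapped for the large subunit, with 6.67 to 6.91% against 6.78 to 7.44%. They did not overlap for the small subunit, with 5.98 to 6.03% against 6.97 to 7.72%. Of the large subunit, Rpl41 had mean TPM of 3110 in naive libraries and 7285 in PCs, and Rpl10 had 865 and 2246. Leaving out Rpl10, Rpl41 and the small-subunit Rps27l, all other members took 13.3 to 14.7% in naive and 11.5 to 11.7% in PC libraries. Subunit shares without these genes were not calculated, so no subunit difference is read from the overlap. Median log2 changes from naive B cells to PCs were -0.20 for the large and -0.23 for the small subunit. The shares given here were not tested, since the members were chosen with the levels known. In sorted bulk RNA, less RNA per cell and fewer cells that carry it cannot be told apart.

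**Figure D1:**
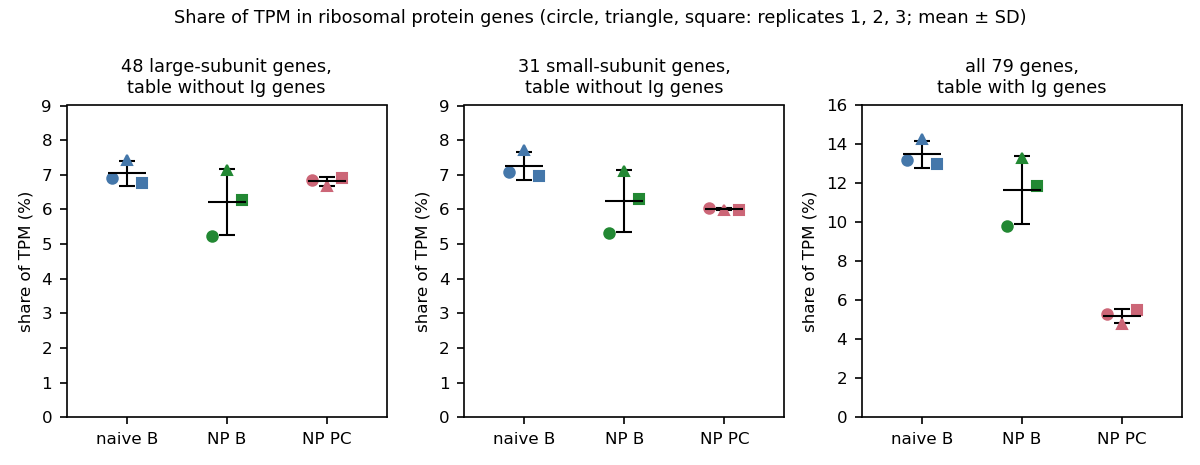
Share of TPM (%) taken by the large-subunit and small-subunit genes without Ig genes and by all 79 genes with Ig genes, for naive B, activated B (NP B) and plasma cell (NP PC) libraries; points are libraries, bars the mean ± SD of 3. Without Ig genes the groups lie between 5.23 and 7.72%, and with Ig genes the 3 PC libraries sit at 4.77 to 5.49%.

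Activated B cell replicate 1 stood apart. For each gene the difference from the mean of the naive libraries was taken on the log2 scale, and its median over the 79 members was -0.46 in that library, 0.04 in replicate 2 and -0.19 in replicate 3. It was the lowest of the 3 activated libraries for 73 members and the highest for 5, among them Rpl5 and Rpl7l1. The median over all tested genes in the same library was -0.07. In the PC libraries the members' medians were -0.18, -0.21 and -0.17, and those of all tested genes -0.39, -0.50 and -0.46.

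**Figure D2:**
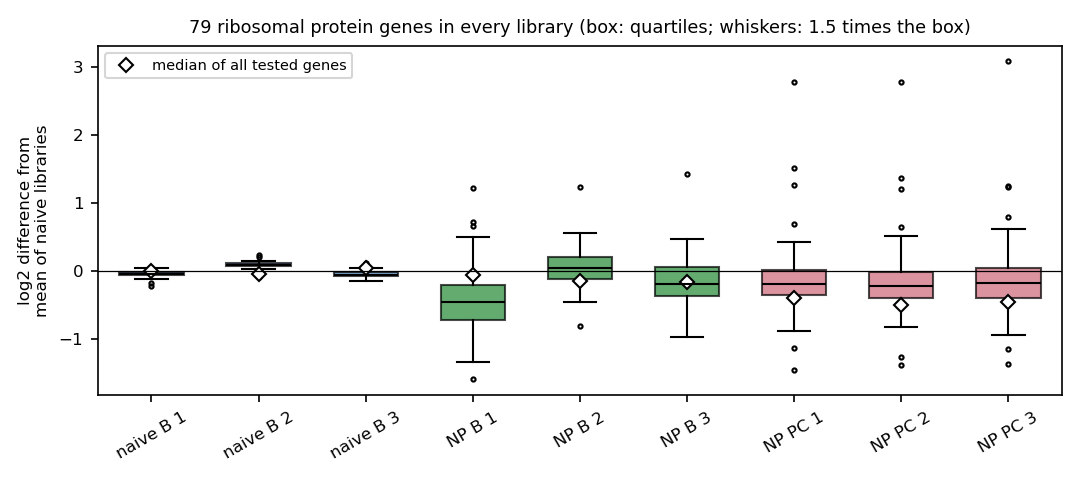
Log2 difference of each of 79 ribosomal protein genes from the mean of the naive libraries, by library; boxes show quartiles and diamonds the median of all tested genes. Activated B cell replicate 1 has a members' median of -0.46 against 0.04 and -0.19 in replicates 2 and 3, and in the PC libraries the members' medians lie above the diamonds.

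Activated B cells were compared with naive B cells to ask how NP-binding cells without IgD, not yet plasma cells, differ from IgD-high cells of immunized mice that do not bind NP. With an adjusted p-value under 0.05 and over 2-fold change, 1 of 79 members rose, Rps27l, where 8.13% of 12892 tested genes did, and 1 fell, Rps27, where 10.4% did. With a log2 change of at least 0.5 in place of 2-fold, 1 rose against 15.7% of all genes and 12 fell against 20.9%. The median log2 change was -0.20 over the members and -0.16 over all genes. Among the 7278 genes with a mean of at least 10 TPM, the members' own threshold, it was -0.01. Of those genes 21.5% rose and 20.5% fell at the limit of 0.5. The members' median was -0.07 without activated replicate 1 and 0.04 with median-of-ratios scaling, where that of all genes was 0.08. Both members called over 2-fold belong to the small subunit but changed in opposite directions. At the lower limit 8 of 31 small-subunit genes (25.8%) and 4 of 48 large-subunit genes (8.33%) fell. The medians of the subunits were close, at -0.20 and -0.21. Without activated replicate 1, 5 members fell at that limit and 19.1% of all genes did, and without replicate 2, 22 members and 19.4% of all genes did, so the number that fell rests on these libraries.

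The largest fall was that of Rps27 (chr3:90212522-90213651; positions are from GENCODE vM21 on GRCm38), a zinc-finger protein of the small subunit. It had 7109, 7575 and 6632 TPM in naive libraries and 2354, 4067 and 3615 in activated B cells, with no overlap. The log2 change was -1.13 ± 0.16 (SE, limma adjusted p = 2.85e-04), and it was -0.90 without activated replicate 1, under 2-fold. Rps15a, a small-subunit protein, had 1369, 1539.6 and 1365 against 560.2, 1066 and 843 TPM (log2 change -0.85 ± 0.18, adjusted p = 0.00408). Rpl12, which lies at the base of the stalk, fell from 243, 279.8 and 273 to 119.9, 193 and 167 TPM (-0.76, adjusted p = 0.00236). Rps24 fell by 0.74 on the log2 scale (adjusted p = 0.0027) and Rps28 by 0.74 (adjusted p = 0.0136). Rps28 had 1951 TPM in activated replicate 1 and 4103 and 3285 in the others, all below the naive range of 4628 to 5338, and its change was -0.44 without replicate 1.

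PCs were compared with naive B cells to ask how the class stands in cells that secrete antibody. Over 2-fold, 3 members rose, Rps27l, Rpl10 and Rpl41, against 11.4% of all genes, and 2 fell, Rps27 and Rpl12, against 26.3%. With a log2 change of at least 0.5, 5 rose against 16.5% and 14 fell against 39.7%. The median log2 change was -0.20 over the members and -0.47 over all tested genes, and 60 of 79 members lay within 0.5 of 0, where 4063 of 12892 genes did. Among genes with a mean of at least 10 TPM the median was -0.41, and 44.7% fell at the limit of 0.5. With the Ig genes kept and each library scaled to its summed rows, 71 of 79 members fell over 2-fold, where 64.5% of all genes did. The members' median was then -1.42 and that of all genes -1.40. With median-of-ratios scaling the members' median was 0.32 and that of all genes 0.04, so the sign of the class as a whole follows from the scale chosen. On the quantile scale it was -0.42 for the members and -0.07 for all genes.

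Rpl10 (chrX:74270812-74273135), the protein whose late loading completes the large subunit, rose in PCs. It had 793, 944 and 858 TPM in naive libraries, 508, 874 and 703 in activated B cells and 2474, 2223 and 2041 in PCs. The PC libraries lay above all others, and the log2 change was 1.37 ± 0.16 against naive (adjusted p = 2.58e-05) and 1.72 ± 0.16 against activated B cells (adjusted p = 6.06e-06). A row for a copy of its mRNA, Rpl10-ps3 (chr9:50344201-50344968), moved alike, with 1068, 1187 and 972, then 544, 1067 and 852, then 3332, 3466 and 2425 TPM, and how pseudoalignment divides reads between them cannot be told from the tables. The sum of both rows was 1941 ± 165 TPM in naive, 1516 ± 446 in activated B cells and 5320.2 ± 742 in PCs. With Ig genes in the table the change of Rpl10 was 0.15 against naive (adjusted p = 0.451) and 0.52 against activated B cells (adjusted p = 0.0231), both under 2-fold.

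Rpl41 (chr10:128548114-128549305) encodes the smallest protein of the ribosome. Its libraries had 3042, 3317 and 2969.8 TPM in naive, 2741, 4169 and 3628 in activated B cells and 7419.6, 7157 and 7279.7 in PCs. Naive and activated libraries overlapped, while the PC libraries stood above both by 1.22 ± 0.12 (adjusted p = 8.78e-06) and 1.08 ± 0.12 (adjusted p = 2.76e-05) on the log2 scale. Rpl41 was the most abundant member in PCs. With Ig genes kept, its change against naive was 0.00 and against activated B cells -0.13. Rpl38, a small protein at the surface of the large subunit, had 1293, 1356 and 1150.2 TPM in naive and 1701, 1799 and 2197 in PCs, a log2 change of 0.57 (adjusted p = 0.00114) that was -0.65 with Ig genes kept.

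Falls in PCs were led by Rps27, with 2589.8, 2726 and 2751 TPM (-1.41 ± 0.16 against naive, adjusted p = 2.03e-05). Rpl12 had 120.0, 110.5 and 119 TPM (-1.19 ± 0.15, adjusted p = 5.51e-05), and its locus overlaps Lrsam1 on the other strand. With median-of-ratios scaling these changes were -0.89 and -0.67. Rpl7l1 followed with -0.84, Rps15a with -0.78 and Rpl36, of the large subunit, with -0.78 (adjusted p = 2.04e-04, 0.00334 and 0.00132), and with median-of-ratios scaling these were -0.33, -0.27 and -0.26 and passed no limit. Rps27 and Rps15a did not differ further between PCs and activated B cells by this test, with log2 changes of -0.28 ± 0.16 and 0.06 ± 0.19, but without activated replicate 1 the change of Rps27 was -0.51 (adjusted p = 4.33e-04). These comparisons share the naive libraries.

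**Figure D3:**
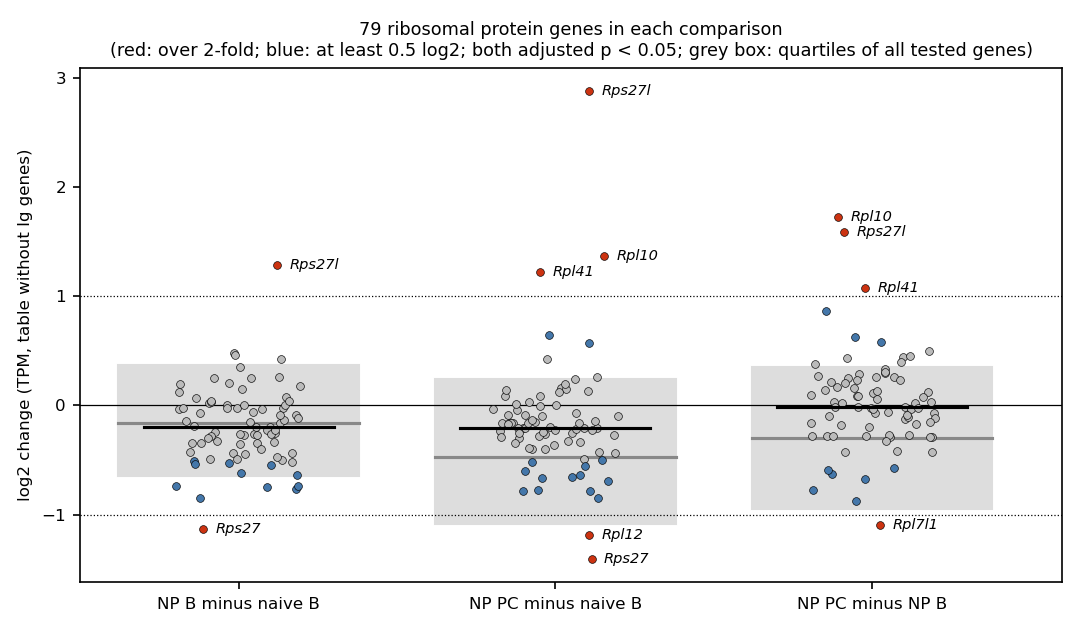
Log2 change of each of the 79 members in the 3 comparisons, with those called over 2-fold in red and named and those called at 0.5 log2 in blue; black lines are the members' medians and grey boxes the quartiles of all tested genes. Most members lie within 1 log2 unit of 0, and Rps27l, Rpl10 and Rpl41 stand above the rest in PCs.

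PCs were compared directly with activated B cells of the same specificity. Over 2-fold, 3 members rose, Rpl10, Rps27l and Rpl41, against 9.93% of all genes, and 1 fell, Rpl7l1, against 22.3%. With a log2 change of at least 0.5, 6 rose against 14.2% and 7 fell against 35.9%. The median was -0.01 over the members and -0.30 over all genes. Among genes with a mean of at least 10 TPM it was -0.44, and 46.4% fell at the limit of 0.5. With median-of-ratios scaling the members had 0.26 against -0.03 for all genes, and on the quantile scale -0.22 against 0.00. With Ig genes kept they had -1.22 against -1.27, so whether members or all genes are higher depends on the scale. With Ig genes kept none of the 3 members that rose passed 2-fold, with 0.52 for Rpl10, 0.38 for Rps27l and -0.13 for Rpl41. Rpl41 and Rpl7l1 stayed called at the lower limit without activated replicate 1 but were then under 2-fold, with log2 changes of 0.91 and -0.99. Rps28 had 5366, 5380.3 and 5522 TPM in PCs and was higher by 0.87 (adjusted p = 0.00372), or 0.57 without activated replicate 1, and Rpl38 by 0.63 (adjusted p = 6.91e-04). With Ig genes in the table both had the opposite sign, with -0.34 and -0.58.

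Among the members that fell from activated B cells to PCs, Rpl5, which binds 5S RNA and can restrain Mdm2, had 189, 206 and 199 TPM in naive, 325, 246 and 268 in activated B cells and 157, 157 and 139 in PCs. Activated libraries were the highest and PC libraries the lowest, without overlap (log2 change from activated to PCs -0.88 ± 0.11, adjusted p = 7.26e-05). Rps2, at the mRNA entry of the small subunit, had 1841, 1955 and 1803, then 2649, 2513 and 2591, then 1797, 1797 and 1443 TPM (-0.63, adjusted p = 1.58e-04). The PC libraries of Rps2 lay below the naive ones, with a log2 change of -0.16 that passed no limit. Rps19, whose loss causes Diamond-Blackfan anaemia in humans, had 6974, 7534 and 6613, then 7073, 7714 and 7686, then 4455, 4569.7 and 4077 TPM. Its PC libraries lay below all others (-0.78 ± 0.08 against activated, adjusted p = 7.98e-06). Rpl3, near the peptidyl transferase centre, changed by -0.68 (adjusted p = 4.59e-05). With median-of-ratios scaling Rpl7l1 at -0.82, Rpl5 at -0.60 and Rps19 at -0.50 stayed past the lower limit, and Rps2 at -0.35 and Rpl3 at -0.40 did not. Among all members the highest group mean was in naive B cells for 43, in activated B cells for 18 and in PCs for 18. The same count was not made over all genes. Their median log2 changes against naive B cells were also below 0, at -0.16 in activated B cells and -0.47 in PCs.

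Paralogs gave the largest rises in the comparisons with naive B cells, while Rpl10 rose most among members in PCs against activated B cells. Rps27l (chr9:66946086-66949516), a close relative of Rps27 known as a p53 target, had 251, 240.4 and 252 TPM in naive, 577, 584 and 669 in activated B cells and 1707, 1707 and 2096 in PCs. The 3 groups did not overlap. The log2 changes were 1.29 ± 0.11 in activated B cells (adjusted p = 1.06e-05), 2.88 ± 0.10 in PCs against naive (adjusted p = 3.10e-09) and 1.59 ± 0.10 against activated B cells (adjusted p = 2.31e-07). With Ig genes in the table the change in PCs was 1.65 against naive but 0.38 against activated B cells (adjusted p = 0.0156), which passes neither limit. As a percentage of Rps27, Rps27l was 3.53, 3.17 and 3.79 in naive libraries, 24.5, 14.4 and 18.5 in activated B cells and 65.9, 62.6 and 76.2 in PCs. A retrotransposed copy, Rps27rt (chr9:114982366-114982739), fell with Rps27, from 2432 ± 57.6 TPM in naive to 939 ± 286 in activated B cells and 912 ± 97.1 in PCs. The sum of Rps27 and Rps27l was 7353 ± 466, 3955 ± 906 and 4525 ± 286 TPM, so the added Rps27l was smaller than the loss of Rps27.

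Rpl36al (chr12:69182731-69184083), the autosomal relative of the X-linked Rpl36a, has a symbol that the selection pattern misses. It had 608, 638 and 576 TPM in naive, 814, 907 and 872 in activated B cells and 3263, 3089 and 3207 in PCs. The groups did not overlap, and the log2 changes were 0.50 ± 0.08 (adjusted p = 5.77e-04), 2.39 ± 0.07 (adjusted p = 1.04e-09) and 1.89 ± 0.07 for PCs against activated B cells (adjusted p = 5.56e-09). With Ig genes in the table the last was 0.68, under 2-fold. Rpl36a itself had 845, 929 and 801, then 515, 819 and 629.6, then 816, 789.9 and 825 TPM, and did not differ between PCs and naive B cells by this test (-0.09 ± 0.14). Rpl36al was thus 70.8% ± 1.86 of Rpl36a in naive, 136% ± 23.8 in activated B cells and 393% ± 5.81 in PCs. The sum of the pair was 1466 ± 95.7 TPM in naive and 3997 ± 104 in PCs, in contrast to the sum of Rps27 and Rps27l. The Rpl36al locus overlaps the gene model Gm49383 on the same strand.

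Rps12 itself is listed at 0 in all libraries, while the member Rps12l1 had group means of 559, 560 and 510 TPM. With 21 rows named as Rps12 pseudogenes it summed to 1413 ± 144 TPM in naive, 1404 ± 302 in activated B cells and 1123 ± 83.1 in PCs, and how reads were divided among these copies was not tested. Over the class, 243 rows carried a pseudogene suffix, 19 of them with a mean of at least 10 TPM, and they summed to between 5.54% and 8.38% of the members' TPM.

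Of the paralogs in the remaining pairs, Rpl7l1 alone passed a limit in the main comparisons. Rpl22l1, which Rpl22 is known to repress, had 301 to 382 TPM in naive, 322 to 483 in activated B cells and 300.2 to 404 in PCs, overlapping throughout. It was 51.7% ± 6.79, 73.3% ± 3.42 and 53.9% ± 7.84 of Rpl22. Rpl7l1 (chr17:46773907-46782672) had 85.8, 78.4 and 85.0 TPM in naive, 116, 85.9 and 98.9 in activated B cells and 44.9, 48.5 and 45.2 in PCs, and was lower in PCs than in activated B cells by -1.10 ± 0.13 (adjusted p = 3.05e-05). Its partner Rpl7 had group means of 2170.4, 1736 and 1916 TPM and passed no limit. Rps4l was 0.826%, 1.17% and 1.13% of Rps4x. The muscle paralog Rpl3l and the testis paralogs Rpl10l and Rpl39l reached at most 0.515, 0.475 and 2.32 TPM in any library, where Rpl39 had group means of 912, 676 and 587 (-0.64 in PCs against naive, adjusted p = 0.0244). Rps4x changed by -0.53 in activated B cells (adjusted p = 0.0125).

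**Figure D4:**
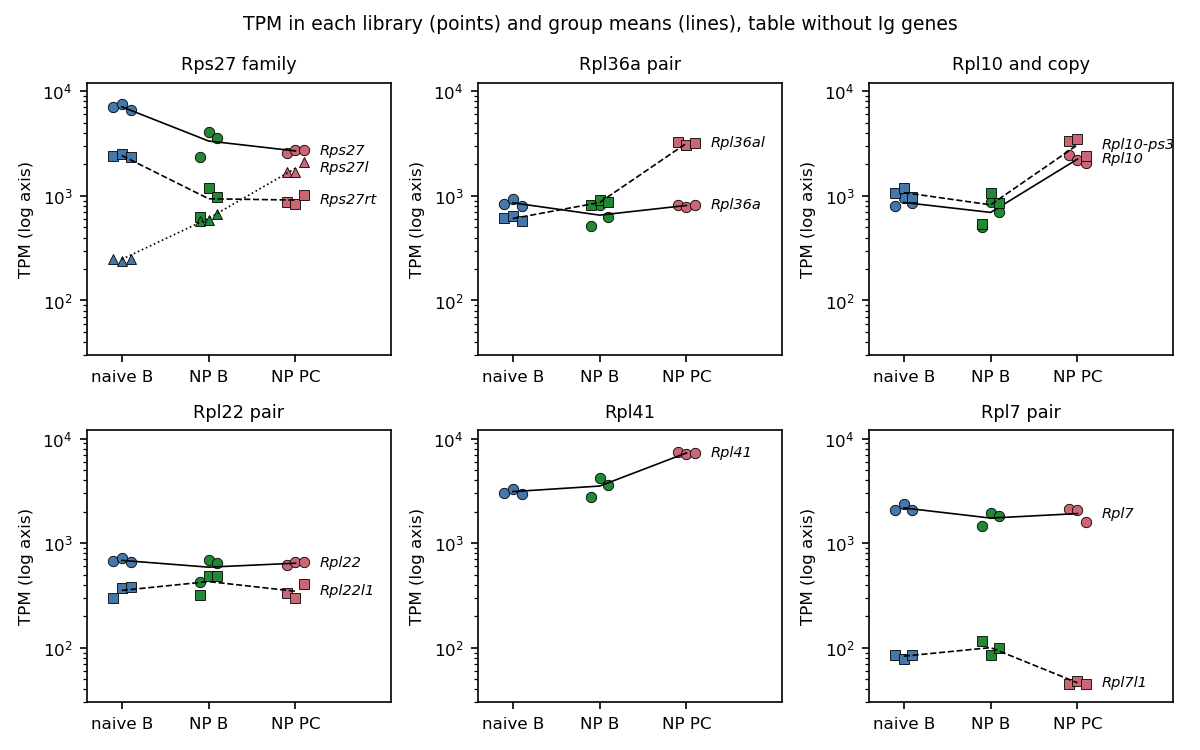
TPM on a log axis in each library (points) with group means (lines) for the paralog pairs and copies of Rps27, Rpl36a, Rpl10, Rpl22 and Rpl7 and for Rpl41. Rps27l rises to 1837 and Rpl36al to 3186 TPM in PCs while Rps27 falls to 2689 and Rpl36a stays at 810.4.

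The stalk proteins recruit elongation factors. Rplp0, their anchor, had 1719.8, 1898 and 1742 TPM in naive, 1966, 2642 and 2317 in activated B cells and 2883, 2782 and 2748 in PCs. Its log2 change from naive B cells to PCs was 0.65 ± 0.10 (adjusted p = 2.33e-04), and the 3 groups did not overlap, but with Ig genes in the table the change was -0.58. Rplp1 changed by -0.28 and Rplp2 by 0.14 in the same comparison, with group means of 1948, 1641 and 1609 TPM for Rplp1 and 1661, 1407 and 1835 for Rplp2.

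Of the ribosomal proteins with other symbols, Rpl36al alone among those named here passed 2-fold. Rpsa had group means of 958, 786 and 730.4 TPM, and its changes passed no limit. Fau, whose product carries the small-subunit protein S30, had 755, 538 and 529.9 TPM with a log2 change from naive B cells to PCs of -0.52 (adjusted p = 0.00442) and to activated B cells of -0.50 (adjusted p = 0.00888). With median-of-ratios scaling these were 0.00 and -0.26 and passed no limit. Gnb2l1, the gene of the small-subunit scaffold RACK1, had 1009.7, 1201 and 973 TPM.

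The wider translation machinery was examined by lists, counted against the same background. Of 42 tested initiation factors 3 (7.14%) rose over 2-fold in activated B cells, near the 8.13% of all genes, with a median log2 change of 0.25 against -0.16, which was 0.49 with median-of-ratios scaling and 0.07 on the quantile scale. They were Eif1ax (36.6 to 81.9 TPM) and the eIF2 subunits Eif2s1 (51.4 to 113) and Eif2s2 (38.8 to 80.1). In PCs against naive 5 (11.9%) rose against 11.4% of all genes and 2 (4.76%) fell against 26.3%, led by Eif5, the GTPase activator of eIF2 (1.32 ± 0.11, adjusted p = 1.79e-06), and by a fall of the helicase gene Eif4a2 (-1.45 ± 0.12, adjusted p = 2.34e-06). The list's median there was 0.07, but 0.59 with median-of-ratios scaling, 0.20 on the quantile scale and -1.13 with Ig genes kept. All genes had -0.47, 0.04, -0.07 and -1.40 in the same order. In PCs against activated B cells Eif1b fell from 109 ± 17.1 to 52.0 ± 6.69 TPM (-1.06 ± 0.14, adjusted p = 1.00e-04). Eif5a, which relieves stalled elongation, rose from 836 ± 18.5 to 1726 ± 296 TPM in activated B cells (1.02 ± 0.12, adjusted p = 8.18e-05) and had 1123 ± 95.1 in PCs, alone among 9 tested elongation factors to rise over 2-fold. Its paralog Eif5a2, at 2.58 ± 0.296 TPM in naive B cells, fell to 0.652 ± 0.199 in PCs (-1.44 ± 0.28, adjusted p = 0.00111).

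Of 22 tested chaperones and maturation factors dedicated to ribosomal proteins, 6 (27.3%) fell over 2-fold in PCs against naive B cells, near the 26.3% of all genes. At the limit of 0.5, 15 (68.2%) fell against 39.7%, and the median was -0.66 against -0.47. Against activated B cells 6 (27.3%) fell over 2-fold against 22.3% and 17 (77.3%) at the lower limit against 35.9%, with a median of -0.74 against -0.30. The largest falls were those of Rrs1, which helps to load the 5S particle with Rpl5 (34.3 ± 3.74 in naive, 41.6 ± 7.83 in activated B cells and 8.76 ± 3.83 TPM in PCs), Pdcd2, a chaperone of Rps2 (62.0, 70.0 and 21.8 TPM), and Zfp622 (37.0, 45.3 and 14.8 TPM). PC replicate 3, which held liver transcripts, was the lowest PC library for all 3 of these, with 4.41 TPM of Rrs1 against 11.6 and 10.2. The list's median in PCs against naive B cells was -0.65 without that library and -0.33 on the quantile scale. It was -0.15 with median-of-ratios scaling and -1.83 with Ig genes kept. Against activated B cells it was -0.75, -0.30, -0.47 and -1.83 in the same order. In each of these settings it stayed below the median of all genes. Among 7 proteins that bind such mRNAs, 2 (28.6%) rose over 2-fold in PCs against naive, against 11.4% of all genes, and 2 (28.6%) fell, against 26.3%. Tial1 rose from 12.8 ± 2.06 to 27.1 ± 5.10 TPM (1.05 ± 0.24, adjusted p = 0.00313). Larp1b rose from 5.76 ± 0.872 TPM in naive to 38.9 ± 2.73 in PCs (2.65 ± 0.17, adjusted p = 2.53e-07), and Larp1 had 10.5, 12.2 and 9.22 TPM. Tia1 fell from 78.9 ± 12.5 to 29.1 ± 5.87 TPM (-1.44 ± 0.20, adjusted p = 1.02e-04) and Larp4b from 24.5 ± 5.20 to 10.3 ± 2.21 TPM (-1.22 ± 0.25, adjusted p = 0.00165).

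The mitochondrial ribosome is separate from the cytoplasmic one. In the table without Ig genes it took 0.672%, 0.661% and 0.638% of TPM in the naive libraries. It took 1.08%, 0.923% and 0.998% in activated B cells and 0.939%, 0.952% and 0.957% in PCs. In that table all activated and PC libraries lay above all naive ones. With Ig genes kept, the cytoplasmic members' mean share was 13.5% in naive B cells but 5.19% in PCs. The share of the mitochondrial ribosome was not calculated with Ig genes kept. The median log2 change of all genes in PCs against naive B cells was -0.47 without Ig genes and -1.40 with them. The order of PCs above naive B cells is therefore not shown to hold with Ig genes kept. In activated B cells 10 of its 77 genes (13.0%) rose over 2-fold against 8.13% of all genes, with a median log2 change of 0.51, while the cytoplasmic genes had -0.20 and all genes -0.16. In PCs against naive 13 (16.9%) rose against 11.4% and 2 (2.597%) fell against 26.3%. In PCs against activated B cells 3 (3.90%) rose against 9.93% and 5 (6.49%) fell against 22.3%, 30 (39.0%) fell at the lower limit against 35.9% of all genes, and the median was -0.38 against -0.30. The largest change was that of Mrpl57, from 28.6 ± 1.42 TPM in naive to 49.7 ± 3.75 and 202 ± 9.58 (2.79 ± 0.11 in PCs against naive, adjusted p = 5.05e-09), and Mrps30 had 29.9, 74.4 and 10.6 TPM. Mrps25 and Mrpl18 rose in activated B cells by 1.25 and 1.20, Mrps28 and Mrps12 in PCs against naive by 1.70 and 1.57, and Mrps6 fell by 1.77 from activated B cells to PCs, all on the log2 scale.

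**Figure D5:**
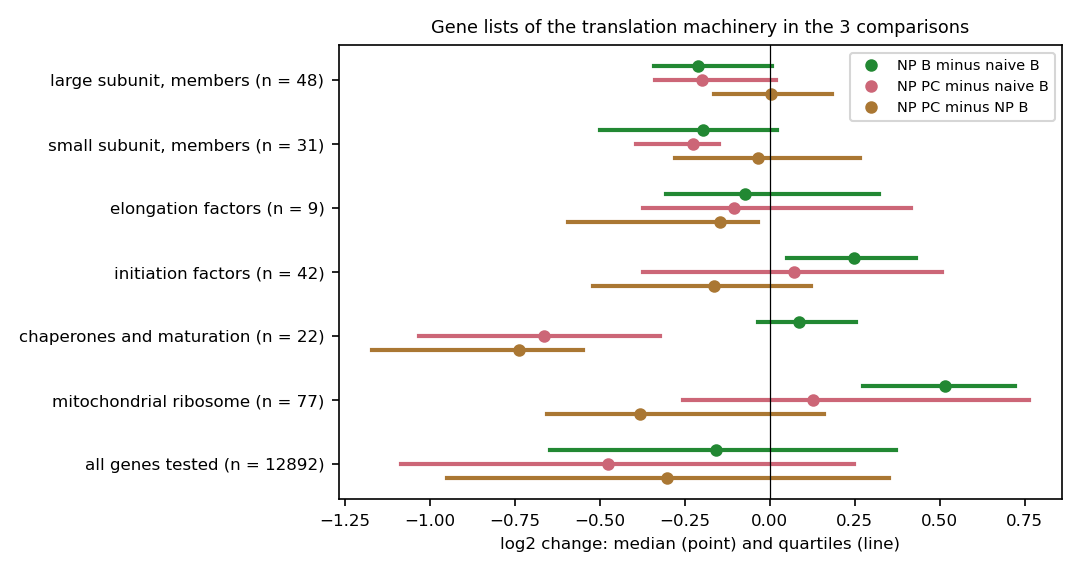
Median log2 change (points) with quartiles (lines) of the cytoplasmic ribosomal protein genes by subunit, of 4 other lists of the translation machinery and of all tested genes, in 3 comparisons. Mitochondrial ribosomal genes have a median of 0.51 in activated against naive B cells, and the chaperone and maturation list lies at -0.66 and -0.74 in the comparisons with PCs.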

How the data were processed

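RNA was extracted with TRIZOL, amplified with SMARTer v4 and made into Nextera XT libraries. The authors pseudoaligned reads with kallisto to mm10 and deposited TPM per gene, with and without Ig genes, and log2 values from limma's voom; the annotation version is not given in the sources used here. From the deposited TPM without Ig genes, voom and limma 3.58.1 (R 4.3.3) were fitted with 3 group means on 12892 genes with at least 1 TPM in at least 3 libraries, offset 0.5, and p-values were adjusted by Benjamini-Hochberg over all of them. Fold changes are on the log2(TPM + offset) scale. A call needed an adjusted p-value under 0.05 and over 2-fold, or a log2 change of at least 0.5. The library size in this fit was the summed TPM of all rows without Ig genes. Estimated reads were recovered from the deposited log2 values and used for the reads per library, the relative transcript length and an alternative fit. The main fit used TPM because the study's methods fit TPM with voom and limma. The script was tested on simulated data. Groups came from the labels. The genes named are, in each comparison, the 5 members with the largest rise and fall past either limit, the 3 highest and 3 lowest by mean TPM, those next to the threshold, the paralog pairs, the stalk proteins, the ribosomal proteins outside the symbol pattern and, of each other list, the 3 largest changes over 2-fold. Rpl10-ps3, Rps27rt, Larp1, Tial1 and the Rps12 copies were added after their values were seen. A gene of the lists that the rule would name is not reported here. The members and lists were chosen with earlier results of these data known. Other scalings, offsets, filters, tables and left-out libraries were tried as alternatives.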

Additional observations from a re-analysis of the deposited data

How the results depend on the processing

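Of 93 gene changes checked in 22 alternatives (2037 values), 45 passed 2-fold only in the alternative and 14 no longer passed it. At the lower limit 58 lost their call and 70 gained one. The sign changed in 88, of which 68 passed no limit before or after. Of the other 20, Rpl3 at 0.0176 and Fau at 0.00172 in PCs against naive B cells came from median-of-ratios scaling and the rest from the table with Ig genes. With Ig genes, PCs against naive gave Rps28 -1.09, Rplp0 -0.58, Rpl38 -0.65, Rps4l -1.03 and Rplp2 -1.08. PCs against activated B cells gave Rps15a -1.14, Rps24 -0.71, Rps28 -0.34, Rpl41 -0.13, Rplp0 -0.92, Rpl38 -0.58, Rps29 -0.83, Rps4l -0.92, Rplp2 -0.81, Rpl7 -1.06, Rpl22 -1.05, Rpl36a -0.87 and Rps4x -1.07. With that table the members called higher and lower in PCs against naive were 1 and 71 over 2-fold and 1 and 76 at the lower limit, and against activated B cells 0 and 56, and 1 and 75. Of all genes 64.5% and 59.7% were then lower over 2-fold and 74.9% and 70.1% at the lower limit. The shares higher were 4.47% and 3.41% over 2-fold and 6.06% and 4.73% at the lower limit. The members' share was then 13.5% in naive B cells and 5.19% in PCs. Against the nominal total of that table, a denominator chosen after seeing the data, it was 12.6% in naive, 10.6% in activated B cells and 3.55% in PCs. With median-of-ratios scaling, activated against naive gave 0 lower over 2-fold, and 6 higher and 4 lower at the lower limit, PCs against naive gave 5 and 0, then 20 and 2, and PCs against activated gave 0 lower over 2-fold, then 22 and 3. Of all genes 23.9%, 26.6% and 20.6% were then higher and 11.9%, 21.6% and 25.6% lower at the lower limit, in the same order. Over 2-fold, 5.84%, 13.8% and 16.1% of all genes were lower in that order, and 18.7% were higher in PCs against naive. With quantile normalization, activated against naive gave 2 lower over 2-fold against 7.57% of all genes and 4 higher at the lower limit against 15.9%. PCs against naive gave 3 higher against 23.4% of all genes and 28 lower against 25.4%, at the lower limit. PCs against activated gave 0 lower over 2-fold against 14.3% of all genes and 16 lower at the lower limit against 23.4%. The authors' log2 values gave 2 higher at the lower limit in activated against naive (16.3% of all genes), and estimated counts gave 2 there (17.2%) and 10 in PCs against activated (15.4%). Adding pseudogene rows made the share 15.2% in naive B cells and 13.8% in PCs, and adding the genes the symbol pattern misses made it 13.6% in PCs. The causes of these shifts were not tested.

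Leaving out each library in turn, the members higher and lower over 2-fold were 1 to 1 and 0 to 2 in activated against naive, 3 to 3 and 2 to 2 in PCs against naive, and 2 to 4 and 0 to 1 in PCs against activated. At the lower limit they were 1 to 3 and 5 to 22, 4 to 5 and 11 to 15, and 5 to 11 and 7 to 9. Over all genes, the shares higher and lower at the lower limit were then 13.5 to 17.8% and 15.9 to 21.8%, 15.1 to 16.8% and 35.7 to 40.4%, and 13.2 to 15.2% and 33.1 to 36.3%, and over 2-fold 7.42 to 9.44% and 8.39 to 10.98%, 10.8 to 11.8% and 25.05 to 27.4%, and 9.17 to 10.7% and 21.1 to 23.9%. The share was 13.9 to 14.6% in naive B cells, 11.6 to 13.4% in activated B cells and 12.8 to 12.9% in PCs.

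Libraries with the same replicate number did not deviate together (correlations between -0.0749 and 0.0675), and the numbers were taken as names. With 3 libraries a group this cannot tell whether libraries came from the same mice. With the replicate number as a block, 1 member rose and 1 fell over 2-fold in activated against naive, 3 and 2 in PCs against naive and 3 and 1 in PCs against activated, as without it. Reads per gene are not in the TPM tables, and 3 libraries a group limit the precision of every value.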

Other observations

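Many ribosomal protein genes carry small nucleolar RNAs in their introns. By the annotation 28 members held 52 such genes, and their median log2 change was -0.25 in activated against naive B cells, -0.24 in PCs against naive and -0.07 in PCs against activated, where the 51 other members had -0.16, -0.16 and 0.06.

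Across the 79 genes, the relative transcript length (estimated reads per TPM, which ranged from 0.221 of the median member for Rps27 to 5.43 for Rpl7l1) had a Spearman correlation of 0.16, -0.26 and -0.32 with the log2 change in the same order of comparisons. The genes share libraries and are not independent, so no p is given.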
